A study of Homo sapiens with 16 samples.

Results

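The 48 mitosis genes described here encode the kinases, cyclins, motors, kinetochore parts and cytokinesis proteins that carry a cell from G2 through division, with the transcription factors FOXM1 and MYBL2 and the proliferation antigen MKI67. They were taken by name, as rows of a table of 60448 Ensembl identifiers, and each of the 48 symbols matched 1 identifier through GENCODE release 29. Measured values played no part in the rule, but the genes were named with earlier results of these data known. All 48 passed the filter on low values (a 16-library mean of 0.5 FPKM or more), so no gene dropped out of any count below.

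RNA-seq libraries came from 2 established human lung adenocarcinoma lines, A549 and the cisplatin-resistant A549/cDDP derived from it, in 8 groups of 2 libraries each. In the order used here the groups were A549/cDDP transfected with a gapmer that targets SCAT7, a long noncoding RNA, in cisplatin and in solvent; A549/cDDP transfected with a control gapmer, in cisplatin and in solvent; untransfected A549/cDDP in cisplatin and in solvent; and untransfected A549 in cisplatin and in solvent. Cisplatin, which crosslinks DNA, or its solvent was present for 24 h at a concentration labelled 15 mM, a unit printed as labelled and not checked. A549/cDDP was maintained in medium holding the drug at that same labelled concentration, so its solvent libraries come from cells with a history of exposure. A gapmer is an antisense oligonucleotide that makes RNase H cut its target. Transfected cells received 12 pmol and were harvested 48 h after transfection. SCAT7 was targeted with 1 gapmer sequence, and its target is named in the study's design text, not in the sample labels. Nothing in the labels says whether the 2 libraries of a group came from separate cultures, so the p-values measure only the spread between these libraries, which may be technical.

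Mitotic genes are transcribed late in the cell cycle. MYBL2 acts with the MuvB core complex, and FOXM1 joins it, to switch them on in G2. In cells that stop dividing, the DREAM complex, built on the same MuvB core with pocket proteins and E2F4, holds them down, and the inhibitor p21 (CDKN1A) acts upstream of that switch after DNA damage. Many of their promoters carry a CHR element, the MuvB contact, a short distance downstream of CCAAT boxes, which bind NF-Y. In bulk RNA a smaller share of cells in G2 and mitosis and less of these RNAs per cell cannot be told apart, in any comparison below.

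The letters of both elements were looked for in RefSeq promoter windows of build GRCh38.p14, which run from 250 bases before to 50 bases after a start site. The table held 50 windows for 40 of the 48 genes. CHR letters (TTTGAA or TTCGAA, on either strand) were in 34 of these 50 windows, 68%, against 16.4% of all 35116 windows. CCAAT letters, on either strand, were in 37, 74%, against 34.6%, and both were in 28, 56%, against 6.38%. E2F letters (TTTCCCGC, TTTGGCGC or TTTCGCGC, on either strand) were in 4, 8%, against 2.74%. In the 150 bases just before the start site, CHR letters were in 46% of the mitosis gene windows and in 7.87% of all windows. None of these letter strings contains another. A match describes the window and is no evidence of a bound site. Other forms of the CHR element were not searched for, so a window without these letters is not shown to lack it. The promoters of PLK1 and CDC20 are printed because they hold the letters of both elements. Those of CCNB1 and KIF20A are printed because they hold CCAAT letters and neither CHR form searched for. That of CDC25B is printed because this gene departed most from the common pattern. Each is given 5′ to 3′ on the plus strand as the 250 bases before the start site, with CHR and CCAAT letters, in either orientation, in capitals.
PLK1, chr16:23678639-23678888: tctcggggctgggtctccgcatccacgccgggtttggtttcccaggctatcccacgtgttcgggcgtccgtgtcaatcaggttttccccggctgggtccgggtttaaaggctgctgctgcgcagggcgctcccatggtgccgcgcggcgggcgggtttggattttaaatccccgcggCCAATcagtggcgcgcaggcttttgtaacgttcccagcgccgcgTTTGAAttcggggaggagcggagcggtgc
CDC20, chr1:43358731-43358980: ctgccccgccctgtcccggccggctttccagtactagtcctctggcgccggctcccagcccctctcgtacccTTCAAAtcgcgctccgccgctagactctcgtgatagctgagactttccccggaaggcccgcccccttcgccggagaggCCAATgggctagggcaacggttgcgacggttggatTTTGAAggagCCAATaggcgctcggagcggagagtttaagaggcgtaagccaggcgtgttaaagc
CCNB1, chr5:69166900-69167149: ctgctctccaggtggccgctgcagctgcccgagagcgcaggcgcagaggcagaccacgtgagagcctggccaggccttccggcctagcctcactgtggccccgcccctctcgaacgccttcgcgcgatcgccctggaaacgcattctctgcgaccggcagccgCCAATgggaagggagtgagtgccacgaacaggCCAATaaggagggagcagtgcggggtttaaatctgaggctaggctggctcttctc
KIF20A, chr5:138178862-138179111: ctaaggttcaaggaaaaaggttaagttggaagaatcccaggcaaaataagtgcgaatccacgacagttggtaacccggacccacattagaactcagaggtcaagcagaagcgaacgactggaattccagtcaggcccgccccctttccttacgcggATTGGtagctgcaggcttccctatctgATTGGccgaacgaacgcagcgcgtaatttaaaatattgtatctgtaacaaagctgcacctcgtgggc
CDC25B, 1 of its 4 windows, chr20:3796060-3796309: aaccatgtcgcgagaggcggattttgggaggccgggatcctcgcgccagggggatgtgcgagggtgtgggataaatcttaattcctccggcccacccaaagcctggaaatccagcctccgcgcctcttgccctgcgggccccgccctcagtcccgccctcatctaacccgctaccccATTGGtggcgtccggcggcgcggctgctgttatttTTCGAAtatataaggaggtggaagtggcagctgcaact
The PLK1 and CDC25B windows each show 1 CCAAT match followed by 1 CHR match closer to the start site, while the CCNB1 and KIF20A windows show a pair of CCAAT matches each. Of the 4 CDC25B windows the printed one alone holds CHR letters, and 2 of the other 3 hold the letters of neither element. Among the 40 genes with a window, 31 had CHR letters in at least 1 of them. The 9 without were AURKB, CCNB1, CENPE, KIF20A, KIF2C, MYBL2, NEK2, PTTG1 and SPC24.

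Depth, read back from the steps between low FPKM values, lay between 31200000 and 43000000 fragments per library. The SCAT7 gapmer libraries were the shallowest at 31200000 to 33350000 and the control gapmer libraries the deepest at 42350000 to 43000000, so depth moved with the gapmer, and its part in the gapmer results was not tested. The mitosis gene with the fewest reads was CDC25C, with an estimated 135 in replicate 1 of the SCAT7 gapmer solvent group. Replicates correlated at r = 0.991 to 0.996 over all genes tested. The mitosis genes of the 2 SCAT7 gapmer groups were less even than the rest, since their median absolute difference between replicates was 0.201 in cisplatin and 0.19 in solvent on the log2 scale, against 0.0331 to 0.11 in the other 6 groups. Of 12 markers of other lineages, 11 stayed at or below 0.59 FPKM in every library and COL1A1 ranged over 7.20 to 52.7, while the 8 epithelial and A549 markers were all detected, EPCAM weakly at 0.584 to 3.81. The pseudogenes or close copies KIF4B, PTTG2, PTTG3P, CCNB2P1 and RACGAP1P stayed at or below 0.197 FPKM. Whether reads were counted by strand is not stated. The exons of PRC1, FOXM1, PLK1, BUB1B and CDC25C overlap another gene model over 57.6%, 15.9%, 11.6%, 10.2% and 8.78% of their length. Reads in such stretches could be shared. The model over PRC1 had no FPKM value, and BUB1B-PAK6, the model over BUB1B, was at 0 FPKM in every library. CENPA overlaps SLC35F6 on the same strand over 6.96% of its exons, and SLC35F6 stood at 18.4 to 26.6 FPKM.

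By the median of the 48 genes, levels were lowest with the SCAT7 gapmer and highest in A549 in solvent. Gene by gene, the lowest group mean was in a SCAT7 gapmer group for 37 genes and in A549 with cisplatin for 11, PLK1, BIRC5, ESPL1 and KIF18B among them. With the SCAT7 gapmer the median gene had 8.99 and 10.3 FPKM in the 2 cisplatin libraries and 7.45 and 7.99 in the 2 solvent libraries. With the control gapmer it had 34.2 and 34.6 in cisplatin and 43.0 and 43.3 in solvent. In untransfected A549/cDDP it had 15.2 and 14.2 in cisplatin and 22.5 and 23.2 in solvent. In A549 it had 12.3 in both cisplatin libraries, against 60.5 and 60.0 in solvent. Set per gene as a percentage of the A549 solvent mean, the median was 18.5% in cisplatin and 14.6% in solvent with the SCAT7 gapmer, and 54.9% in cisplatin and 68.4% in solvent with the control gapmer. It was 24.5% in cisplatin and 34.4% in solvent in untransfected A549/cDDP, and 21.4% in A549 in cisplatin. Only KIF18B and ESPL1 exceeded their A549 solvent mean in any other group, both in control gapmer cells in solvent, KIF18B at 116%. MKI67 was the lowest gene relative to A549 in solvent in all 6 A549/cDDP groups, and ECT2 the highest in the 4 of them that had not received the control gapmer.

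**Figure D1:**
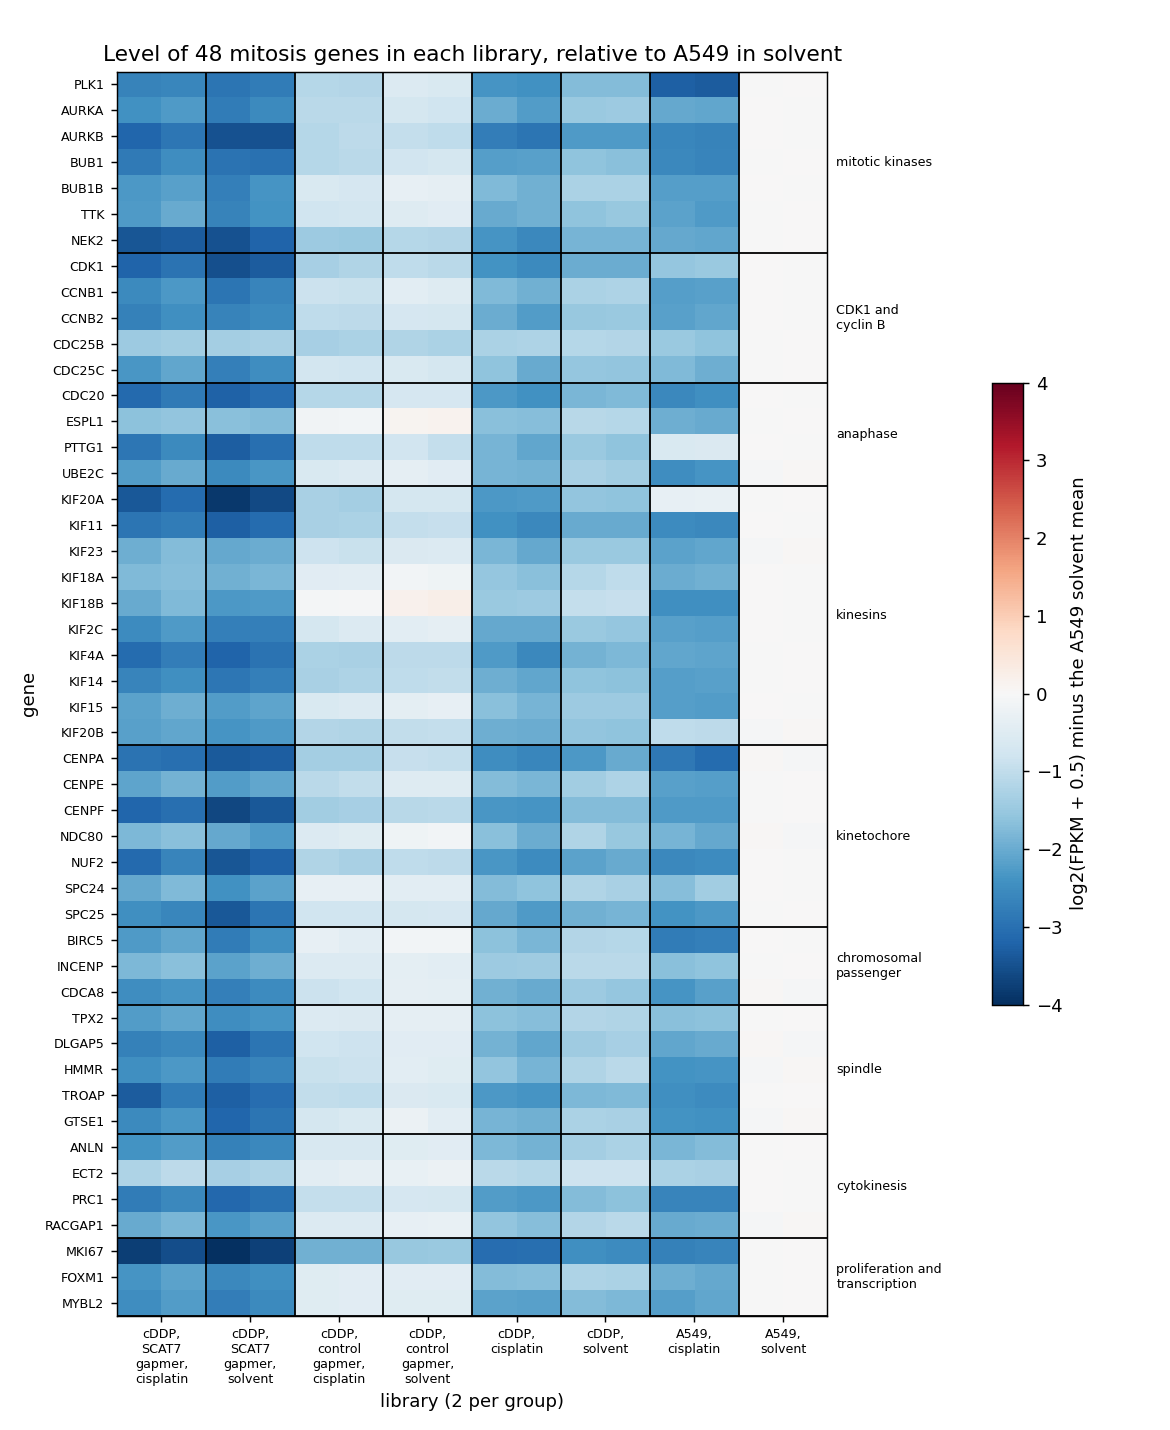
Level of each of the 48 genes (rows, by role) in each of the 16 libraries (columns, 2 per group), as log2(FPKM + 0.5) minus the mean of the A549 solvent libraries. The 2 columns of a group look alike, and the darkest blue, the lowest level, lies in the SCAT7 gapmer columns, with KIF20A and PTTG1 nearly white in A549 with cisplatin.

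**Figure D2:**
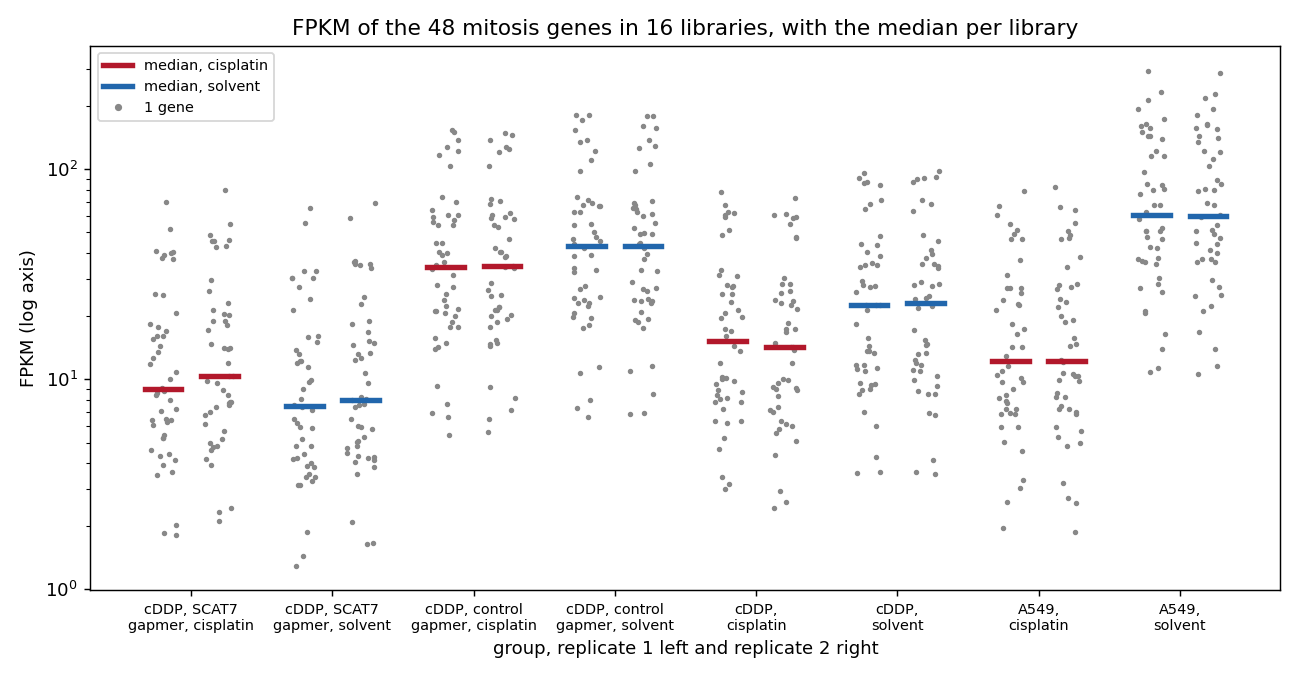
FPKM on a log axis of the 48 genes (grey points) in each library, with the median per library as a red bar in cisplatin and a blue bar in solvent. The medians run from 7.45 in the SCAT7 gapmer solvent group to 60.5 in A549 in solvent.

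Cisplatin lowered every mitosis gene in A549. All 48 fell, against 27.1% of the 17198 genes tested that were called lower, and both cisplatin libraries lay below both solvent libraries for all 48, which held for 35.8% of all genes. The median log2 change was -2.19, while that of all genes was 0.06. Single genes ranged from -3.30 for PLK1 to -0.31 for KIF20A. PLK1, CENPA and BIRC5 fell most. KIF20A, PTTG1 and KIF20B fell least, at -0.31, -0.59 and -1.03, and ECT2 followed at -1.29. The test was limma on log2(FPKM + 0.5) with Benjamini-Hochberg adjustment over all genes, two-sided with a threshold of 0.05, as in every comparison below. CDKN1A stood at 1636 and 1611 FPKM in A549 in cisplatin, against 84.1 and 84.3 in solvent, and whether it bears on the fall was not tested.

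The 7 mitotic kinases all fell with cisplatin in A549, with a median of -2.21. PLK1, the polo-like kinase that matures centrosomes and promotes mitotic entry, had 16.4 and 15.8 FPKM in cisplatin and 161 and 164 in solvent. Its log2 change was -3.30 ± 0.0431 (SE, n = 2 each, limma adjusted p = 6.76e-14), which leaves 9.89% of the solvent level. AURKA, the kinase of the spindle poles, had 27.1 and 26.8 FPKM in cisplatin and 115 and 112 in solvent, a change of -2.06 ± 0.0863 that was the smallest of the 7. The other kinases, AURKB of the chromosomal passenger complex, BUB1, BUB1B and TTK of the spindle checkpoint, and NEK2, which separates centrosomes, changed by between -2.64 and -2.07. 

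CDK1, CCNB1, CCNB2, CDC25B and CDC25C, the kinase and cyclins that drive entry into mitosis and the phosphatases that activate them, all fell, with a median of -1.86. CCNB1, cyclin B1, had 49.4 and 50.7 FPKM in cisplatin and 232 and 229 in solvent. Its kinase CDK1 kept more, with 46.6 and 48.7 FPKM in cisplatin and 139 and 134 in solvent, so that the log2 change was -2.19 ± 0.0883 for CCNB1 and -1.51 ± 0.0833 for CDK1. The cisplatin and solvent libraries of both genes were far apart relative to the spread between replicates.

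Among the 4 anaphase genes the median was -2.21, but they did not move evenly. CDC20, the activator of the anaphase-promoting complex, had 25.8 and 28.1 FPKM in cisplatin and 157 and 155 in solvent, a change of -2.51 ± 0.0815. PTTG1, securin, which restrains separase, had 78.9 and 82.3 FPKM in cisplatin and 122 and 122 in solvent. That change of -0.59 ± 0.113 (limma adjusted p = 0.000579) left PTTG1 as the most abundant of the 48 in both cisplatin libraries. UBE2C, the ubiquitin-conjugating enzyme of the complex, and ESPL1, separase, changed by -2.43 and -1.98.

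The 10 kinesins, the motor proteins of spindle and midzone, had a median of -2.15 and included the gene that fell least. KIF11, which pushes spindle poles apart, had 5.93 and 5.66 FPKM in cisplatin and 36.1 and 36.1 in solvent, a change of -2.54 ± 0.0761. KIF20A, a motor of the central spindle, had 54.6 and 55.7 FPKM in cisplatin and 67.8 and 69.3 in solvent. The libraries of KIF20A did not overlap, yet its change of -0.31 ± 0.092 (limma adjusted p = 0.0112) kept 80.5% of the solvent level. That call did not pass without replicate 2 of the A549 solvent group or replicate 1 of the A549 cisplatin group. KIF20B, which acts in cytokinesis, had 10.5 and 10.3 FPKM in cisplatin and 21.2 and 22.3 in solvent. The remaining 7 kinesins changed by between -2.45 and -1.96.

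Kinetochore genes had a median of -2.28 over 7 genes. CENPA, the histone H3 variant that marks centromeres, had 5.95 and 5.00 FPKM in cisplatin and 47.5 and 44.3 in solvent, a change of -2.96 ± 0.0925 (limma adjusted p = 6.02e-11). SPC24, a subunit of the microtubule-binding NDC80 complex, had 8.18 and 10.4 FPKM in cisplatin and 28.5 and 27.5 in solvent, a change of -1.55 ± 0.115. Its partners in that complex, NUF2, SPC25 and NDC80, changed by -2.55, -2.34 and -1.96. The 4 subunits of the complex thus ranged from -2.55 to -1.55, and the cisplatin libraries of SPC24 differed from each other more than those of any other of the 48 genes, by 0.325.

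The 3 listed subunits of the chromosomal passenger complex other than AURKB, which is counted with the kinases, all fell, with a median of -2.27. BIRC5, survivin, had 27.2 and 28.4 FPKM in cisplatin and 194 and 194 in solvent, a change of -2.78 ± 0.0923. CDCA8, borealin, had 4.56 and 5.29 FPKM in cisplatin and 26.1 and 24.9 in solvent, a change of -2.27 ± 0.0861. INCENP, the scaffold of the complex, had 18.2 and 19.2 FPKM in cisplatin and 58.2 and 60.6 in solvent, a change of -1.64 ± 0.0543. INCENP therefore held a larger part of its solvent level than the other two, with no overlap between groups in any of the 3 genes.

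The 5 spindle-associated genes had a median of -2.38. TROAP, a microtubule-associated protein of the spindle, had 8.96 and 8.57 FPKM in cisplatin and 50.8 and 51.1 in solvent, a change of -2.47 ± 0.129. TPX2, the activator of AURKA, had 27.1 and 27.4 FPKM in cisplatin and 85.5 and 89.0 in solvent, a change of -1.66 ± 0.0553. DLGAP5, HMMR and GTSE1, which bind spindle microtubules, lay between these values, at -2.04, -2.38 and -2.41.

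In cytokinesis the median was -1.90 over 4 genes. PRC1, which bundles the microtubules of the midzone, was the most abundant of the 48 in A549 in solvent and had 46.5 and 46.5 FPKM in cisplatin and 294 and 287 in solvent, a change of -2.63 ± 0.0668. ECT2, the exchange factor that activates RhoA at the division plane, had 67.2 and 66.1 FPKM in cisplatin and 164 and 163 in solvent, a change of -1.29 ± 0.0552. ANLN, the anillin scaffold of the contractile ring, and RACGAP1 of centralspindlin changed by -1.79 and -2.01.

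The proliferation and transcription genes fell as well. MKI67, the Ki-67 antigen, had 11.6 and 12.1 FPKM in cisplatin and 76.4 and 79.1 in solvent, a change of -2.66 ± 0.0782. FOXM1, the forkhead activator of G2 genes, had 21.4 and 20.1 FPKM in cisplatin and 84.5 and 85.4 in solvent, a change of -2.01 ± 0.0668. MYBL2, its MuvB-bound counterpart, had 9.68 and 10.6 FPKM in cisplatin and 46.5 and 46.9 in solvent, a change of -2.15 ± 0.0823. Both factors were thus lower by about the same amount as the median of the 48.

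**Figure D3:**
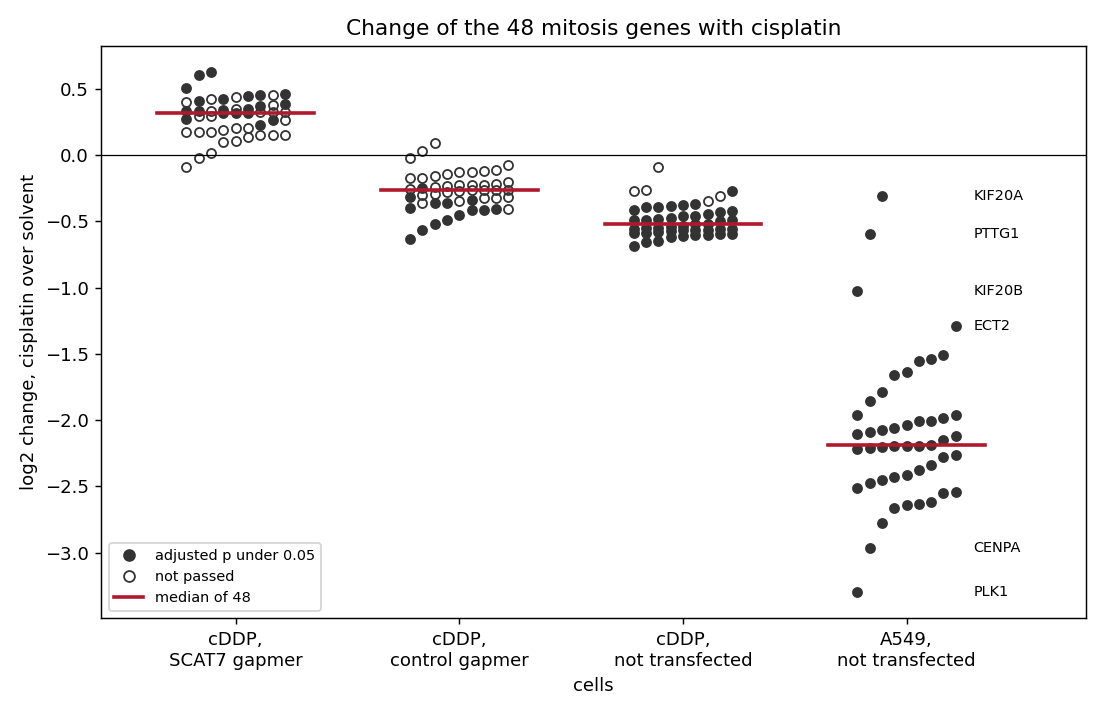
Log2 change of each of the 48 genes with cisplatin over solvent in 4 kinds of cells, from A549/cDDP with the SCAT7 gapmer (left) to untransfected A549 (right). Filled points passed at an adjusted p under 0.05, open points did not, and red bars are medians, which run through 0.32, -0.27, -0.52 and -2.19 from left to right.

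The resistant line held less of every mitosis gene than A549 when both were in solvent. A549/cDDP was lower than A549 for all 48, against 27.5% of genes tested that were called lower, and the libraries of the 2 lines did not overlap for any of the 48, where 33.9% of all genes had both A549/cDDP libraries below. The median log2 difference was -1.50. The median of all genes was 0.15 here and 0.02 with median ratio scaling, so the mitosis genes lay -1.65 from the bulk of genes in the first case. MKI67 differed most, with 13.7 and 13.3 FPKM in A549/cDDP and 76.4 and 79.1 in A549, a difference of -2.48 ± 0.0782 (limma adjusted p = 5.38e-11). AURKB at -2.27 and CENPA at -2.16 followed. The smallest differences were in ECT2, with 91.2 and 91.2 FPKM in A549/cDDP and 164 and 163 in A549, at -0.84 ± 0.0552, in KIF18B at -0.93 and in KIF18A at -1.07. By role the medians ran from -1.16 for the chromosomal passenger genes to -1.76 for MKI67, FOXM1 and MYBL2. CDKN1A was at 579.9 and 573 FPKM in A549/cDDP, against 84.1 and 84.3 in A549, and its part in the difference was not tested. Marker lists moved with the line as well. The 8 epithelial and A549 markers summed to 5509 and 5524 FPKM in A549/cDDP and 10483 and 10229 in A549, with KRT19 alone higher in A549/cDDP. The 12 markers of other lineages summed to 40.2 and 37.2 FPKM in A549/cDDP and 9.82 and 10.1 in A549, nearly all of it COL1A1, and the part of either list in the result was not tested.

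Cisplatin lowered the mitosis genes of A549/cDDP further, by much less than in A549. In this line 43 of 48 fell, against 4.55% of genes called lower, and 5 did not pass (CDC25B, CDC25C, KIF15, NUF2 and SPC25). Both cisplatin libraries lay below both solvent libraries for all 48, as they did for 25.9% of all genes. The median log2 change was -0.52, where that of all genes was 0.00. KIF20A, which fell least of all in A549, fell most here, with 13.7 and 13.8 FPKM in cisplatin and 22.6 and 22.2 in solvent, a change of -0.68 ± 0.092 (limma adjusted p = 0.00118). AURKA had 28.2 and 23.6 FPKM in cisplatin and 40.3 and 41.4 in solvent, and PLK1 31.4 and 30.3 in cisplatin and 48.3 and 48.7 in solvent, changes of -0.65 and -0.65. At the other end CDC25B had 59.2 and 60.9 FPKM in cisplatin and 64.9 and 63.1 in solvent, a difference of -0.09 ± 0.0474 (limma adjusted p = 0.287). For CDC25C and SPC25 the changes were -0.27 ± 0.137 and -0.27 ± 0.119, with limma adjusted p of 0.288 and 0.211. Every one of the anaphase, chromosomal passenger, spindle, cytokinesis and proliferation genes and of the mitotic kinases passed.

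Tested directly as the difference of the 2 cisplatin effects, the response in A549/cDDP was weaker for 46 of the 48 genes, against 21.5% of genes with a positive difference called. The median difference was 1.65 on the log2 scale. PLK1 had the widest gap at 2.65 ± 0.0609 (limma adjusted p = 2.78e-11), ahead of CENPA at 2.58 and BIRC5 at 2.21. PTTG1 did not pass, at 0.17 ± 0.16 (limma adjusted p = 0.423). KIF20A went the other way, at -0.37 ± 0.13 (limma adjusted p = 0.0328), a direction called for 25.6% of all genes. The KIF20A call did not pass with median ratio scaling (-0.31, adjusted p = 0.0894), with quantile normalization, with no filter, with a constant prior or without any 1 of the 8 libraries of the comparison, where adjusted p lay between 0.0621 and 0.0844. These differences share the solvent libraries with the comparison of the lines in solvent, where the same genes were lower.

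In cisplatin the genes split between the lines. A549/cDDP was higher than A549 for 21 genes and lower for 8, against 37% and 29.5% of all genes tested, and 19 did not pass. The median difference was 0.17, beside 0.08 for all genes. BIRC5 was highest relative to A549, with 61.6 and 54.9 FPKM in A549/cDDP and 27.2 and 28.4 in A549, a difference of 1.05 ± 0.0923 (limma adjusted p = 6.14e-07). KIF18B at 0.97 and PLK1 at 0.92 came next. KIF20A was lowest, with 13.7 and 13.8 FPKM in A549/cDDP and 54.6 and 55.7 in A549, a difference of -1.96 ± 0.092 (limma adjusted p = 2.05e-09). PTTG1 had 33.1 and 28.5 FPKM in A549/cDDP and 78.9 and 82.3 in A549, a difference of -1.38. CDK1 had 25.3 and 23.0 FPKM in A549/cDDP and 46.6 and 48.7 in A549, a difference of -0.96. KIF20B at -0.95, NEK2 at -0.39, MKI67 at -0.37, KIF4A at -0.34 and AURKB at -0.19 were the other genes that were lower. The AURKB call did not pass with quantile normalization, with no filter, with a constant prior or with the replicate block, and the KIF4A call did not pass without either A549 cisplatin library. BIRC5, INCENP and CDCA8 were all higher in A549/cDDP. No gene placed here under the kinetochore, chromosomal passenger, spindle or cytokinesis roles was lower. AURKB of the passenger complex, KIF20A of the central spindle and KIF20B of cytokinesis were lower, but are placed under kinases or kinesins.

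Transfection with the control gapmer went with higher levels of nearly the whole list in A549/cDDP. In solvent 47 genes were higher than in untransfected cells, against 20.7% of genes called higher, with a median difference of 0.92, and in cisplatin 47 were higher, against 23%, with a median of 1.17. CDC25B was the exception in both, with 62.6 and 59.9 FPKM with the control gapmer and 64.9 and 63.1 without in solvent, a difference of -0.06 ± 0.0474. AURKB differed most, with 73.9 and 70.7 FPKM with the control gapmer and 29.4 and 28.9 without transfection in solvent, a difference of 1.30 ± 0.0765 (limma adjusted p = 1.37e-07). In cisplatin AURKB had 63.9 and 68.2 FPKM with the control gapmer and 20.7 and 18.5 without, a difference of 1.73. MYBL2 was next in both media, at 1.27 in solvent and 1.69 in cisplatin. The transfection reagent, the oligonucleotide and the handling of transfected cells cannot be told apart in this design. CDKN1A was lower in control gapmer cells, at 266 and 269 FPKM with the control gapmer and 579.9 and 573 without in solvent, and its part in the result was not tested.

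The SCAT7 gapmer libraries held less of their target, the transcript named ELF3-AS1 in the annotation. It stood at 0.594 and 0.837 FPKM with the SCAT7 gapmer and 2.56 and 3.57 with the control gapmer in solvent, and at 1.69 and 2.18 with the SCAT7 gapmer and 3.73 and 3.23 with the control gapmer in cisplatin. The log2 difference was -1.54 ± 0.166 in solvent and -0.71 ± 0.166 in cisplatin (limma adjusted p = 7.50e-06 and 0.00355).

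The SCAT7 gapmer lowered 47 of the 48 mitosis genes relative to the control gapmer in solvent, against 22.7% of genes called lower. Both SCAT7 gapmer libraries lay below both control gapmer libraries for all 48, as they did for 32.8% of all genes. The median log2 difference was -2.21, beside 0.06 for all genes, and the genes stood at 14.6% of their A549 solvent level against 68.4% with the control gapmer. KIF20A, GTSE1 and DLGAP5 were lowered most. CDC25B alone did not pass, and ECT2 and KIF20B were lowered least. The median of 14.6% also lay below the 34.4% of untransfected A549/cDDP. That difference was not tested, and it also holds any effect of transfection. CDKN1A was at 626 and 623 FPKM with the SCAT7 gapmer and 266 and 269 with the control gapmer in solvent, and its part in the result was not tested. Neither was that of sequencing depth, given above, nor that of the markers of other lineages, which summed to 28.6 and 30.3 FPKM with the SCAT7 gapmer and 41.0 and 40.1 with the control gapmer in solvent.

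The mitotic kinases had a median of -2.21 in this comparison and all 7 were lower. PLK1 had 21.3 and 22.9 FPKM with the SCAT7 gapmer and 111 and 106 with the control gapmer, a difference of -2.27 ± 0.0431 (limma adjusted p = 1.66e-11). AURKA had 15.9 and 18.9 FPKM with the SCAT7 gapmer and 69.3 and 65.6 with the control gapmer. Both kinases were lower in each SCAT7 gapmer library than in either control gapmer library in solvent, as were 32.8% of all genes. AURKB showed the largest difference of the 7, -2.51.

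CDK1 and its regulators were lower for 4 of 5. CDK1 had 11.4 and 13.3 FPKM with the SCAT7 gapmer and 66.6 and 64.8 with the control gapmer, a difference of -2.37 ± 0.0833. CCNB1 had 30.3 and 36.7 FPKM with the SCAT7 gapmer and 172 and 160.4 with the control gapmer, a difference of -2.30 ± 0.0883. CDC25B, the phosphatase that starts CDK1 activation, had 55.6 and 58.6 FPKM with the SCAT7 gapmer and 62.6 and 59.9 with the control gapmer. That difference of -0.10 ± 0.0474 (limma adjusted p = 0.0926) stood against -1.95 ± 0.137 for its relative CDC25C.

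All 4 anaphase genes were lower, with a median of -2.15. CDC20 had 16.02 and 18.4 FPKM with the SCAT7 gapmer and 98.2 and 98.5 with the control gapmer. PTTG1 had 12.0 and 14.5 FPKM with the SCAT7 gapmer and 71.0 and 62.8 with the control gapmer, a difference of -2.29 ± 0.113. PTTG1, which fell by 0.59 on the log2 scale with cisplatin in A549, was thus near the median of the 48 here.

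Kinesins were lower for all 10, with a median of -1.93. KIF20A had 4.22 and 5.11 FPKM with the SCAT7 gapmer and 42.0 and 42.3 with the control gapmer, and its difference of -3.05 ± 0.092 (limma adjusted p = 2.44e-10) was the largest of all 48. KIF11 had 3.27 and 3.83 FPKM with the SCAT7 gapmer and 18.2 and 18.7 with the control gapmer. KIF20B, at -1.35 ± 0.0589, was lowered least of the 10.

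Among the kinetochore genes the median was -2.31. CENPA had 4.01 and 4.22 FPKM with the SCAT7 gapmer and 23.8 and 23.5 with the control gapmer, and SPC24 had 4.82 and 5.90 with the SCAT7 gapmer and 20.7 and 20.9 with the control gapmer. Their differences were -2.39 ± 0.0925 and -1.87 ± 0.115. The chromosomal passenger genes had a median of -2.25. BIRC5 had 27.6 and 35.1 FPKM with the SCAT7 gapmer and 180.4 and 179 with the control gapmer. INCENP had 13.2 and 14.9 FPKM with the SCAT7 gapmer and 45.5 and 44.5 with the control gapmer, and CDCA8 had 3.41 and 4.05 with the SCAT7 gapmer and 19.8 and 19.4 with the control gapmer. As under cisplatin in A549, BIRC5 changed more than CDCA8 and CDCA8 more than INCENP, at -2.51, -2.25 and -1.65.

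The spindle genes had the lowest median of the 9 roles, -2.56. GTSE1 had 3.89 and 4.73 FPKM with the SCAT7 gapmer and 32.6 and 29.02 with the control gapmer, a difference of -2.71 ± 0.0894 (limma adjusted p = 4.69e-10). DLGAP5 differed by -2.64. TROAP had 4.82 and 5.79 FPKM with the SCAT7 gapmer and 34.0 and 33.2 with the control gapmer, and TPX2 had 15.1 and 16.8 with the SCAT7 gapmer and 67.6 and 67.2 with the control gapmer. All 4 of these genes were lower in both SCAT7 gapmer libraries than in both control gapmer libraries, as were 32.8% of all genes.

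Cytokinesis genes had a median of -2.05 and spanned a wide range. PRC1 had 32.7 and 36.1 FPKM with the SCAT7 gapmer and 182 and 179.9 with the control gapmer, a difference of -2.38 ± 0.0668. ECT2 had 65.1 and 69.3 FPKM with the SCAT7 gapmer and 134 and 138 with the control gapmer, a difference of -1.01 ± 0.0552. ECT2 was the most abundant of the 48 in all 4 SCAT7 gapmer libraries. MKI67 had 4.42 and 5.32 FPKM with the SCAT7 gapmer and 26.9 and 27.2 with the control gapmer. FOXM1 had 13.7 and 15.1 FPKM with the SCAT7 gapmer and 62.5 and 61.4 with the control gapmer, and MYBL2 had 6.49 and 7.62 with the SCAT7 gapmer and 33.2 and 32.9 with the control gapmer. The differences of these 3 genes lay within a narrow band, -2.37 for MKI67, -2.07 for FOXM1 and -2.15 for MYBL2.

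In cisplatin the SCAT7 gapmer again lowered 47 of 48, against 21.1% of genes called lower, with a median of -1.58. TROAP had 4.62 and 6.96 FPKM with the SCAT7 gapmer and 25.5 and 24.9 with the control gapmer, a difference of -2.05 ± 0.129 (limma adjusted p = 1.31e-07) that was the largest. AURKB at -1.92 and KIF20A at -1.91 followed, and KIF20B at -0.93 and ECT2 at -0.74 were lowered least. CDC25B, at -0.12 ± 0.0474 (limma adjusted p = 0.0598), was once more the gene that did not pass. The 2 SCAT7 comparisons share no library.

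**Figure D4:**
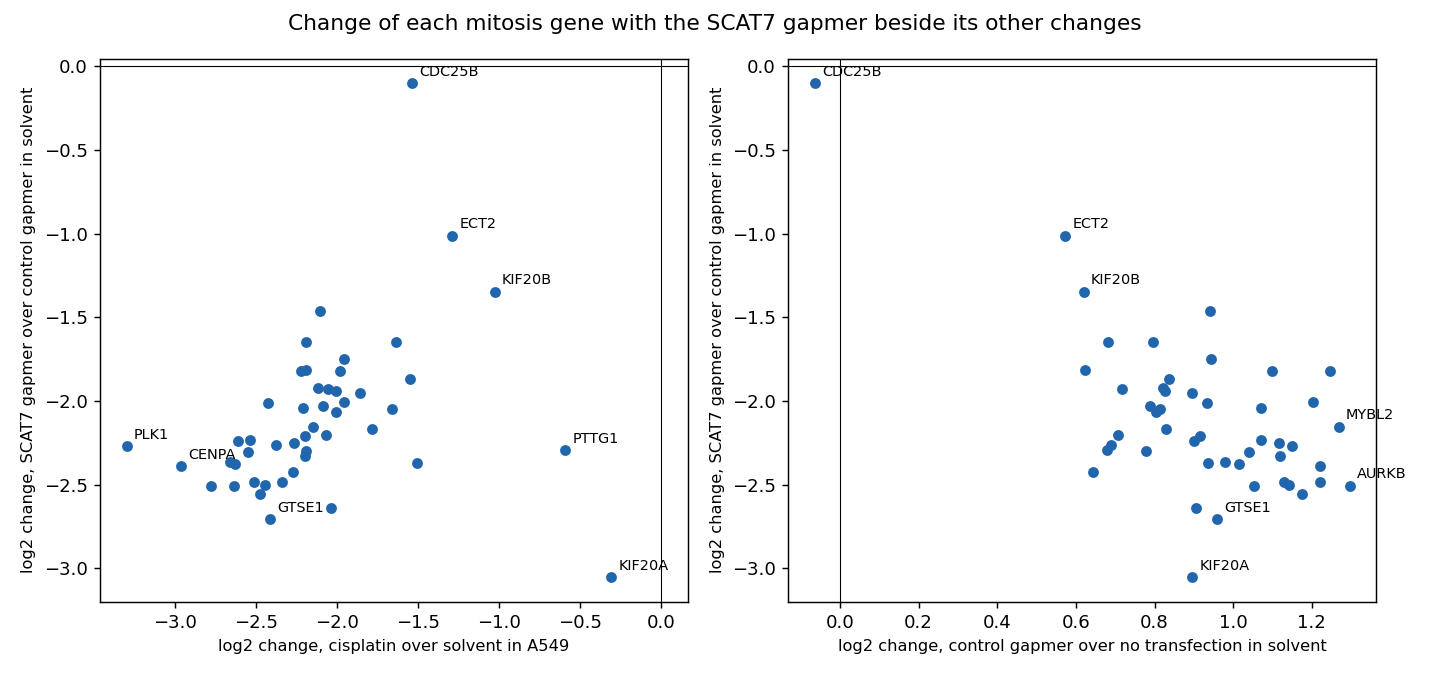
Log2 change of each of the 48 genes with the SCAT7 gapmer over the control gapmer in solvent (vertical axes), beside its change with cisplatin in A549 (left) and its change with the control gapmer over no transfection in solvent (right). KIF20A and PTTG1 lie at the right of the left panel, low with the gapmer and little changed by cisplatin in A549, and CDC25B lies alone near 0 on the vertical axes. The axes of the right panel share the control gapmer solvent libraries.

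In gapmer-treated A549/cDDP a minority of the mitosis genes passed for cisplatin in the main fit, but for most the libraries did not overlap. With the control gapmer both cisplatin libraries lay below both solvent libraries for 45 genes, against 20.1% of all genes. They lay above for 2 genes and overlapped for 1. With the control gapmer 14 genes fell, against 0.855% of genes called lower, and 34 did not pass, with a median of -0.27. KIF20A had 27.3 and 26.6 FPKM in cisplatin and 42.0 and 42.3 in solvent, a change of -0.63 ± 0.092 (limma adjusted p = 0.00306), and PLK1 had 73.4 and 72.2 in cisplatin and 111 and 106 in solvent. CENPE, the kinesin of the kinetochore, changed by -0.52. FOXM1 had 60.2 and 61.6 FPKM in cisplatin and 62.5 and 61.4 in solvent and did not pass (-0.03 ± 0.0668), nor did MYBL2 (0.03) or SPC24 (0.09). The count was 2 without any 1 of the 4 libraries compared, 9 without either A549 solvent library and 22 without either SCAT7 gapmer cisplatin library, and CENPE did not pass without any 1 of the 4.

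With the SCAT7 gapmer 20 genes rose with cisplatin, against 2.92% of genes called higher. The other 28 did not pass and none was called lower. The median change was 0.32. Both cisplatin libraries lay above both solvent libraries for 39 genes, against 22.1% of all genes. They lay below for 1 gene and overlapped for 8. SPC25 had 6.46 and 5.69 FPKM in cisplatin and 3.13 and 4.47 in solvent, a change of 0.63 ± 0.119 (limma adjusted p = 0.0216). GTSE1 had 6.25 and 7.37 FPKM in cisplatin and 3.89 and 4.73 in solvent, a change of 0.61. KIF20A had 6.03 and 7.71 FPKM in cisplatin and 4.22 and 5.11 in solvent, a change of 0.51. These libraries did not overlap, but each replicate 2 of both SCAT7 gapmer groups was higher than its replicate 1 at the median gene. The count was 0 without replicate 1 of the SCAT7 gapmer solvent group, 10 without replicate 2 of the SCAT7 gapmer cisplatin group and 0 when the 4 libraries compared were fitted alone. CDC25B, NEK2 and CCNB2 were at the low end, at -0.09, -0.02 and 0.02, and did not pass. ELF3-AS1 itself differed by 1.0 ± 0.166 between cisplatin and solvent in SCAT7 gapmer cells (limma adjusted p = 0.014), and the part of that in the mitosis gene values was not tested.

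The difference between these 2 cisplatin effects was positive and called for 29 of 48 genes, against 0.488% of genes, with a median of 0.59. It was largest for KIF20A at 1.14 ± 0.13 (limma adjusted p = 0.00271), GTSE1 at 0.93 and DLGAP5 at 0.80. By role, 3 of 3 chromosomal passenger genes, 5 of 7 kinases, 4 of 5 spindle genes and 1 of 3 proliferation and transcription genes passed. The count was 6 without either control gapmer solvent library or without replicate 1 of the control gapmer cisplatin group, 7 without its replicate 2, 8 without replicate 1 of the SCAT7 gapmer solvent group and 2 when the 8 libraries compared were fitted alone. Between control gapmer and untransfected cells the cisplatin effect differed for 2 genes, FOXM1 at 0.43 and ESPL1 at 0.31, against 1.15% of genes called higher, with a median of 0.21, and 0 or 1 passed without any 1 of the 8 libraries compared and 9 without either SCAT7 gapmer cisplatin library.

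The 48 genes followed 1 profile over the 16 libraries with few exceptions. The correlation of a gene with the mean of the 48 standardized profiles, which contains the gene itself, reached 0.998 for CDC20 and was below 0.9 for CDC25B at 0.724, KIF20A at 0.769, PTTG1 at 0.817 and KIF20B at 0.874. These are descriptions over 16 libraries that fall into 8 groups. The mean of CDC25B stayed between 53.6 and 64.0 FPKM in the 6 A549/cDDP groups, and KIF20A and PTTG1 were the genes that kept most of their level in A549 with cisplatin. Outside the list, the 10 genes most like that mean profile were NCAPG and CDCA2 at r = 0.995, SHCBP1, ARHGAP11A, NUSAP1, ARHGEF39, KIF22, NCAPH, NCAPD2 and CEP55, down to 0.991. Across the 48 genes, the change with cisplatin in A549 and the difference between gapmers in solvent, which share no library, correlated at r = 0.279 (Spearman's rho = 0.522), and the cisplatin changes in A549/cDDP without transfection and with the control gapmer at r = 0.566 (rho = 0.576). Genes are not independent replicates, and these values share gene length and level. The length of the gene locus correlated with the cisplatin change in A549 at rho = 0.119 over the 48 and with the gapmer difference in solvent at rho = 0.39.

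Mitosis genes with and without CHR letters in a promoter window had close medians. With cisplatin in A549 the median was -2.20 for the 31 with them, and -2.15 for the 9 without, among which KIF20A, PTTG1 and AURKB covered -0.31 to -2.64. With the SCAT7 gapmer in solvent the medians were -2.23 and -2.30. The letters in the KIF20A window printed above, 2 CCAAT matches and no CHR match, were the same in number as those of CCNB1, which fell by 2.19 on the log2 scale where KIF20A fell by 0.31. A gene counted as having CHR letters if any of its windows held them. Other forms of the element were not searched for, so the genes without these letters are not shown to lack it. Whether the letters bear on these changes was not tested.

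Other genes of the same processes were counted in 7 lists drawn up with earlier results known. With cisplatin in A549, where 27.1% of all genes were called lower and 33.3% higher, 29 of 31 further checkpoint and kinetochore genes fell and none rose, with a median of -1.43. Condensin and cohesin genes fell for 15 of 17 (median -1.38), other spindle, centrosome and cytokinesis genes for 25 of 26 with 1 higher (median -1.81), other mitotic entry genes for 13 of 15 with 1 higher (median -1.68), and G1 and S phase genes for 23 of 25 with 1 higher (median -1.94). The list of the anaphase-promoting complex, the ubiquitin ligase that CDC20 activates, was split, 10 lower and 4 higher of 17 (median -0.19). Besides subunits it holds FZR1, FBXO5 and UBE2S, which are not subunits. FBXO5 at -2.12 and UBE2S at -1.53 had its largest falls. The MuvB, DREAM and E2F genes were split too, 11 lower and 5 higher of 18 with a median of -0.40, and CDKN1A is on that list.

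In A549/cDDP in solvent relative to A549, where 27.5% of all genes were called lower and 42.7% higher, 31 of 31 checkpoint and kinetochore genes, 17 of 17 condensin and cohesin genes and 14 of 15 mitotic entry genes were lower and none was higher. Spindle, centrosome and cytokinesis genes were lower for 25 of 26 and G1 and S phase genes for 24 of 25, with 1 higher in each. The anaphase-promoting complex list had 7 lower, 2 higher and 8 that did not pass of 17, with a median of -0.01. The MuvB, DREAM and E2F list had 9 lower and 6 higher of 18, with a median of -0.03.

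With the SCAT7 gapmer in solvent, where 22.7% of all genes were called lower and 33.2% higher, 29 of 31 checkpoint and kinetochore genes, 24 of 26 spindle genes, 15 of 15 mitotic entry genes and 25 of 25 G1 and S phase genes were lower and none was higher, with medians of -1.48, -1.67, -1.36 and -1.51. Of the 17 condensin and cohesin genes 14 were lower and 1 was higher, the median being -0.88. Of the anaphase-promoting complex list 10 of 17 were lower and 1 was higher, with a median of -0.11. Neither UBE2S at -1.81 nor FBXO5 at -1.05, its largest differences, is a subunit. Of MuvB, DREAM and E2F genes 12 of 18 were lower, with E2F2 at -1.90, E2F8 at -1.86 and E2F1 at -1.55 the largest falls, and CDKN1A was higher at 1.23.

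With cisplatin in SCAT7 gapmer cells, where 2.92% of all genes were called higher, no gene of the 7 lists was lower. The genes that were higher numbered 7 of 31 for checkpoint and kinetochore, 3 of 17 for condensin and cohesin, 4 of 17 for the anaphase-promoting complex, 8 of 26 for spindle, centrosome and cytokinesis, 3 of 15 for mitotic entry, 1 of 18 for MuvB, DREAM and E2F, and 11 of 25 for G1 and S phase.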

How the data were processed

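RNA from 16 libraries, 8 groups of 2, was measured by RNA-seq of oligo(dT)-enriched RNA. Per the submitters' processing notes, TopHat2 and HTSeq 0.6.1 were used with genome build hg38. The authors deposited FPKM, fragments scaled by gene length and library size. The annotation release and strand setting are not given in the sources used here. FPKM divides by the library total, so a change in a few abundant genes shifts all others, and no raw count was used.

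GENCODE release 29 supplied symbols, positions and exon lengths for 56868 of 60448 identifiers. All 16 libraries were fitted with limma 3.58.1 in R 4.3.3 on log2(FPKM + 0.5), 1 mean per group (8 residual degrees of freedom) with a trended prior. Fold changes on this scale understate changes of low genes. The 17198 genes whose mean reached 0.5 FPKM were tested, with Benjamini-Hochberg adjustment over all of them and a two-sided threshold of 0.05. Differences of 2 effects were contrasts in the same fit. Depth was estimated from steps of low values, of which 73.6% to 79.9% were whole at a tolerance of 0.02 reads. That share was judged too low for a count test.

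The genes, the other lists and the tests were chosen with earlier results of these data known. Values per library are given for the gene with the largest and that with the smallest cisplatin change in A549 in each of 9 roles (all of a role of 3), for PLK1, AURKA, CCNB1, CDK1, FOXM1, MYBL2 and MKI67, and for the 3 lowest and 3 highest genes of a comparison where the text needs them. Alternatives were 2 other pseudocounts (0.1 and 1), 2 other filters, 2 scalings, a constant prior, a replicate block, the compared libraries alone, and each library left out.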

Additional observations from a re-analysis of the deposited data

Results flagged for a closer look

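The cisplatin effect differed between A549/cDDP and A549 for most of the mitosis genes by a test of the difference itself (limma, adjusted over all genes): the difference was positive for 46 genes and negative for 1, directions called for 21.5% and 25.6% of all genes. It was 2.65 for PLK1, 2.58 for CENPA, 2.21 for BIRC5 and 0.65 for KIF20B, genes that fell less in A549/cDDP than in A549. It was -0.37 for KIF20A, which fell more in A549/cDDP, a call that several alternatives did not keep.

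Within A549/cDDP the cisplatin effect differed between the SCAT7 gapmer and the control gapmer for 29 genes, all with a positive difference, against 0.488% of all genes, with 1.14 for KIF20A, 0.93 for GTSE1 and 0.80 for DLGAP5. That count was 6 to 37 with 1 library left out and 2 when the compared libraries were fitted alone. The effect differed between the control gapmer and no transfection for 2 genes, against 1.15% of all genes, with 0.43 for FOXM1, and for 0 to 9 with 1 library left out.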

How the results depend on the processing

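No result that passed in the main fit or under an alternative differed in direction between these fits. Over 48 genes, 13 comparisons and 25 alternatives, 14825 of 15600 results kept their side of the threshold. Of the rest, 609 no longer passed and 166 came to pass. Direction was not compared for results that passed in neither fit. Counts of 48, 47, 46, 43, 21 and 8 genes stayed within 1.5 times under each alternative. In control gapmer cells the 14 genes lowered by cisplatin became 8 with no filter, 8 with a constant prior and 26 with the compared libraries alone, and 2 to 22 with 1 library left out. The 20 genes raised by cisplatin in SCAT7 gapmer cells became 9 with a constant prior and 0 with the compared libraries alone, and 0 to 25 with 1 left out. The 29 genes with a different cisplatin effect between the gapmers became 11 and 2 under these, and 6 to 37 with 1 left out. The 2 genes between control gapmer and no transfection became 1 with pseudocount 1, with no filter, with a constant prior and with the replicate block, 0 with median ratio scaling and with quantile normalization, 10 with the compared libraries alone, and 0 to 9 with 1 left out. The cause was not tested, but the fits of the compared libraries alone and with 1 left out hold fewer libraries. With 1 library left out, others ranged over 30 to 45 for cisplatin in A549/cDDP, 18 to 24 and 6 to 8 between the lines in cisplatin, 0 to 1 for KIF20A between the lines, and 46 to 48 elsewhere. Such a fit assumes that a lone library varies like the other groups.

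Replicate numbers showed no strong pairing of the libraries: their deviations correlated at -0.187 to 0.119, over 0.1 in 2 of 28 pairs of groups. Weak correlations cannot show that the libraries were unpaired, and the labels do not say. With the replicate block 42 genes passed for cisplatin in A549/cDDP. Over all genes, median ratio scaling moved the split of calls to 5982 higher and 6050 lower between the lines in solvent (7338 and 4737 without it), 190 and 171 for cisplatin with the control gapmer (288 and 147), 300 and 221 with the SCAT7 gapmer (502 and 217), and 132 and 181 for the difference in cisplatin effect between the control gapmer and no transfection (197 and 127).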
